A study of Mus musculus with 4 samples.

Results

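The folding of 3 clusters of mouse keratin and keratin-associated protein genes was read from Hi-C contact maps of mouse embryonic stem cells (mESCs). The clusters lie on chromosomes 11, 15 and 16, the only chromosomes searched for such genes. Members were the protein-coding genes of the mm9 annotation on these chromosomes whose symbol begins with Krt and that have another such gene within 200 kb, which gave 92 of 22380 protein-coding genes. Of these, 51 are keratin genes and 41 are keratin-associated protein (Krtap) genes. They overlap 55 bins of 40 kb, and the bins from the first to the last member of each cluster number 70. The study compared wild-type (WT) male mESCs with male mESCs described as carrying a deletion of the Firre long non-coding RNA locus on the X chromosome (Firre KO), with 2 libraries in each group. By the methods, WT was the N3 line grown in 2i medium, and Firre KO cells were grown in 2i medium on irradiated feeder fibroblasts that were depleted before use, although the study elsewhere names feeders for both. Genotype and culture therefore cannot be told apart, and neither can cell line, since the origin of the Firre KO line is not given as N3. The authors pooled both libraries of a group, which the methods call technical duplicates, into a single matrix. Differences between the matrices therefore lack replicates, no test was run, and the 95% intervals cover counting error only.

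Keratins are the intermediate filament proteins of epithelial cells. A filament pairs a type I with a type II keratin, and the genes of the types are kept apart in the genome, with type I genes on chromosome 11 and type II genes on chromosome 15. Keratin-associated proteins cross-link keratin filaments in the hair shaft. Most of these genes are silent in mESCs and are switched on in skin, hair and other epithelia, while Krt8 and Krt18, the pair of simple epithelia, are the first keratins made in the embryo. No RNA was measured here, so neither the silence of the clusters nor the identity of the cells could be checked from expression.

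The chromosome 11 cluster runs from Krt222 to Krt42 (chr11:99094075-100131185, mm9) and holds 49 members in 27 bins. Its 22 Krtap genes form a single block, from Krtap3-3 to Krtap17-1, with 12 keratin genes on its proximal side (the side of lower coordinates) and 15 on its distal side. The chromosome 15 cluster runs from Krt80 to Krt18 (chr15:101177875-101862457) and holds 24 keratin genes in 18 bins. Krt18 is its lone type I gene and sits at the distal end beside Krt8. The chromosome 16 cluster runs from Krtap24-1 to Krtap11-1 (chr16:88610954-89571428) and holds 19 Krtap genes in 25 bins, of which 24 had values in both matrices. The spans also hold 34, 4 and 14 other protein-coding gene models, in the same order, which are not members because their symbols do not begin with Krt. Whether some of them encode keratins or keratin-associated proteins was not checked. The nearest protein-coding genes outside the clusters were Smarce1 and Eif1 on chromosome 11, 6030408B16Rik and Eif4b on chromosome 15, and Cldn8 and Tiam1 on chromosome 16.

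CTCF is the DNA-binding protein most often found at the borders of topologically associating domains (TADs), and the ends of many domains carry CTCF sites that point toward each other. The core letters of its motif (CC, 3 bases of any kind, AG, any base, GGGC, any base and C) were therefore searched on both strands of the mm9 sequence around the clusters. Of the 59240 kept autosomal bins, 23.2% hold at least 1 match. The 3 bins centred on the proximal edge of the chromosome 11 cluster hold 5 matches, of which 4 lie on the plus strand and 1 on the minus strand. The 3 bins centred on its distal edge also hold 5 matches, 4 on the minus strand and 1 on the plus strand. At least 5 matches were found in 2.06% of all stretches of 3 bins. The share of stretches with such an arrangement of strands was not measured. The bins of the boundaries described below did not show it. The distal boundary bin holds 2 matches, on opposite strands. The proximal boundary bin called from WT holds 0, and that called from the Firre KO matrix holds 1, which points away from the cluster. Of the matches in the edge bins, those that point into the chromosome 11 cluster are shown, each 5′ to 3′ on its own strand with the core letters in capitals. Matches further out on this chromosome are not listed.
chr11:99050780-99050793, plus strand, proximal edge: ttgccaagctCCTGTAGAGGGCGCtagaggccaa
chr11:99068589-99068602, plus strand, proximal edge: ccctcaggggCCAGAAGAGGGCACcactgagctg
chr11:99075615-99075628, plus strand, proximal edge: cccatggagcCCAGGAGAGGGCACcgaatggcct
chr11:99117725-99117738, plus strand, proximal edge: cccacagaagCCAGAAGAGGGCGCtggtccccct
chr11:100156810-100156823, minus strand, distal edge: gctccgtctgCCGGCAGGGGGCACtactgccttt
chr11:100160614-100160627, minus strand, distal edge: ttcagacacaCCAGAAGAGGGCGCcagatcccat
chr11:100161819-100161832, minus strand, distal edge: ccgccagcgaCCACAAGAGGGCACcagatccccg
chr11:100185137-100185150, minus strand, distal edge: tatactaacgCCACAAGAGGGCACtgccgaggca

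The other edges did not share this arrangement. The 3 bins at the proximal edge of the chromosome 15 cluster hold 3 matches, 1 on the plus and 2 on the minus strand, and those at its distal edge hold 0. The matches closest to its distal border lie further out, between Eif4b and the boundary described below, and 3 of them are shown for that reason.
chr15:101938604-101938617, plus strand: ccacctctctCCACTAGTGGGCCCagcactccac
chr15:101939702-101939715, minus strand: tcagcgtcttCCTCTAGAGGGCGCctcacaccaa
chr15:101977529-101977542, minus strand: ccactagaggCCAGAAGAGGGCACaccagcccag
The chromosome 16 cluster has 0 matches at its proximal edge, 1 at its distal edge and 3 in the 21 bins between. Among the 39 matches in and around the 3 clusters, 4 share the 10 bases before the core, ttcagacaca, including the second of the distal matches on chromosome 11. A match is a string of letters and no evidence of binding, and CTCF was not measured in these libraries.

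The matrices differed in depth. WT had 65611035 read pairs, of which 16.1% joined different chromosomes. The other matrix, whose label is Firre KO, had 46635652, of which 35.6% did, and it is called KO-labelled here. The X chromosome bin inside the deleted locus still had 1144 read pairs within the X chromosome in the KO-labelled matrix and 1550 in WT, or 1437 ppm (1355 to 1523) and 1709 ppm (1625 to 1796) of the X chromosome read pairs. That bin lies wholly inside the deletion, where male cells, with a single X chromosome, would be left with few read pairs. The KO-labelled matrix thus does not show the deletion at this bin. The reason was not tested, and directions drawn from the label carry this limit. Each of the 3 chromosomes differed between the matrices well beyond the clusters, as the backgrounds below show.

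Contacts within a cluster were measured as the mean ratio of observed contacts to the mean contact of all bin pairs at the same distance on the same chromosome (observed over expected), over bin pairs at least 40 kb apart. In the chromosome 11 cluster this was 1.69 in WT (95% counting interval 1.65 to 1.73, 15825 read pairs) and 1.97 in the KO-labelled matrix (1.92 to 2.03, 8981 read pairs). The chromosome 15 cluster gave 1.68 in WT (1.64 to 1.72, 12548 read pairs) and 1.72 in the KO-labelled matrix (1.66 to 1.77, 7344 read pairs). Both keratin clusters were thus denser than their chromosomes, whose windows of the same length had a median between 0.967 and 0.992. Of the 2898 windows on chromosome 11 that do not touch the cluster, 1 was as high in WT and 0 in the KO-labelled matrix. Of 2464 such windows on chromosome 15, 0 were as high in either matrix. Over all autosomes, at most 0.21% of windows of the same length were as high as either cluster in either matrix.

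The chromosome 16 cluster, made of Krtap genes alone, stood apart from the other two. Its mean was 1.12 in WT (1.07 to 1.16, 5476 read pairs) and 1.24 in the KO-labelled matrix (1.18 to 1.30, 2965 read pairs), and 18.7% and 15.4% of the other windows of its chromosome were as high. With uncorrected read pairs its values fell below 1, to 0.863 and 0.899, while those of the chromosome 15 cluster rose to 2.97 and 3.19. The bins of these clusters were sequenced unevenly. The median read pairs per bin in WT were 1373 in the chromosome 16 cluster against 1746 over the chromosome, and 3250 in the chromosome 15 cluster against 1854.

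**Figure D1:**
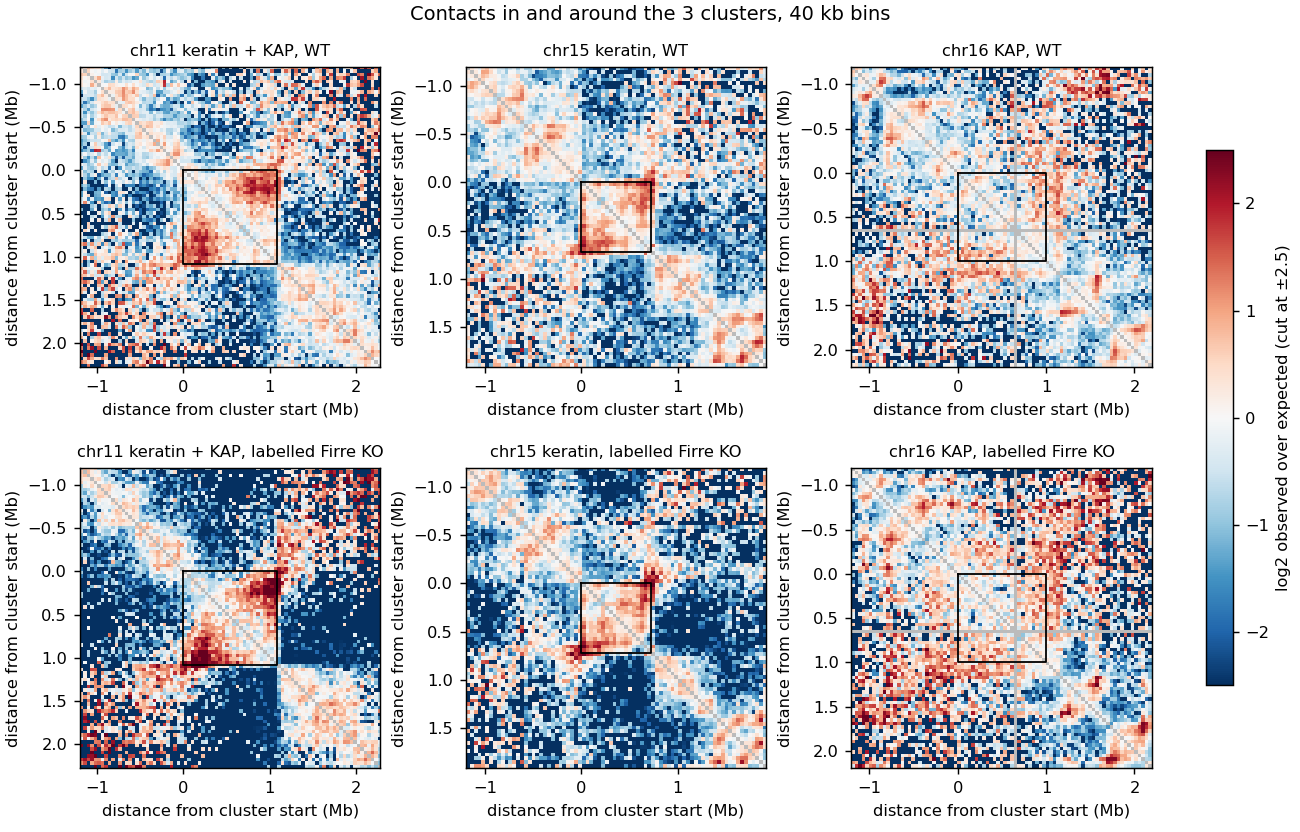
Observed over expected contacts on a log2 scale for bin pairs of 40 kb in and around each cluster (black square), with both axes in Mb from the start of the cluster, for WT (top) and the KO-labelled matrix (bottom). Contacts above the expected value (red) lie in the chromosome 11 and 15 clusters mainly away from the diagonal and are darkest in the far corner, while bins near the diagonal are pale, and no such square is seen on chromosome 16. Grey marks bins with no value.

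The excess of contacts in the keratin clusters grew with distance. On chromosome 11 in WT the mean was 1.07 (1.04 to 1.10) for bins 40 to 200 kb apart, 1.49 (1.43 to 1.55) at 240 to 480 kb and 2.63 (2.52 to 2.73) at 520 kb and over. The matrix labelled Firre KO gave 1.05 (1.01 to 1.10), 1.61 (1.52 to 1.69) and 3.46 (3.31 to 3.61) for the same classes. Short-range contacts of the chromosome 11 cluster therefore lay close to the chromosome's own mean, and the dense square in the contact maps came from pairs of distant genes. On chromosome 15 the steps were 1.26, 1.91 and 2.82 in WT and 1.33, 1.81 and 3.25 in the KO-labelled matrix. The chromosome 16 cluster rose by less, from 1.01 and 1.04 to 1.37 (1.25 to 1.48) at 520 kb and over in WT. In the KO-labelled matrix it rose from 1.09 and 1.17 to 1.52 (1.36 to 1.68). These classes were measured in the 3 clusters alone, so how common such a rise is elsewhere was not measured.

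**Figure D2:**
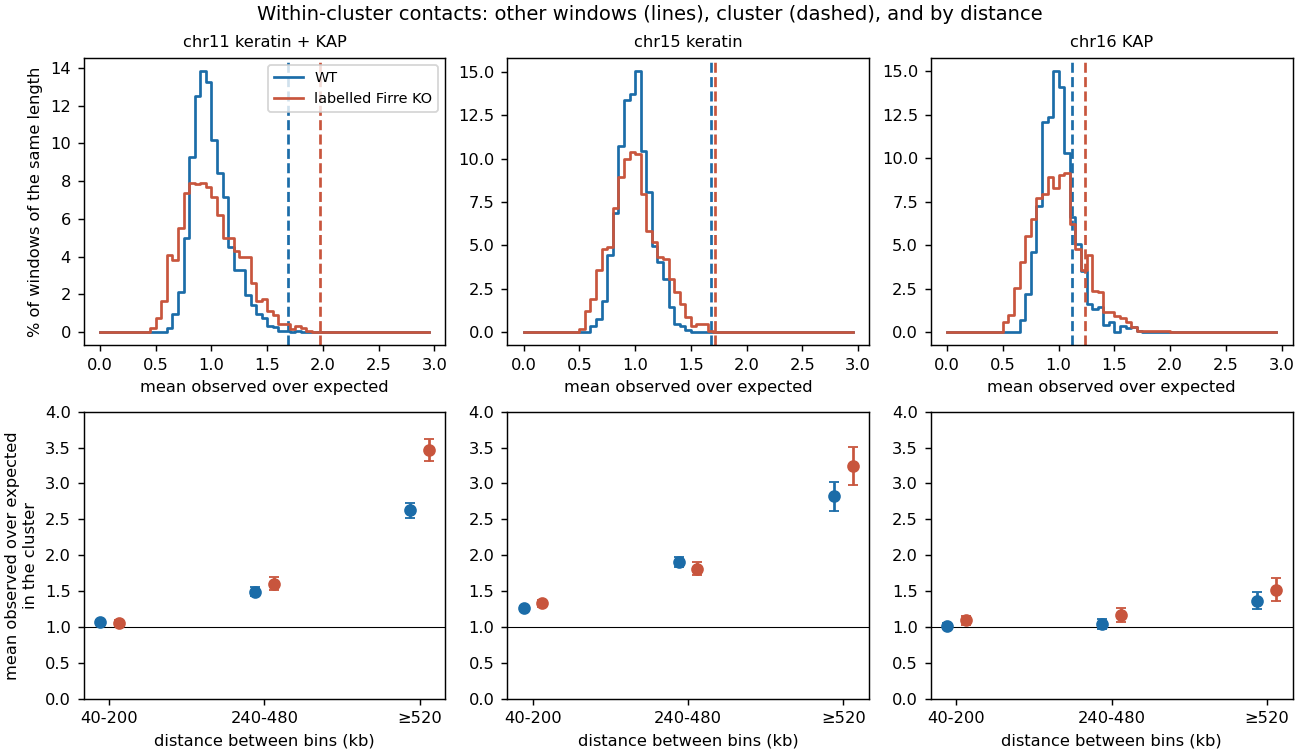
Top: share of windows of the same length on each chromosome by mean observed over expected, with the cluster as a dashed line. Bottom: the cluster's mean by distance between bins, with 95% counting intervals. The chromosome 11 and 15 lines fall at or beyond the end of the distributions and their means rise from 1.07 and 1.26 in the shortest class to 2.63 and 2.82 in the longest in WT.

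The distant pairs of the chromosome 11 cluster were mainly its blocks of keratin genes. The proximal block (Krt222 to Krt40, which holds the epidermal keratin Krt10 and the intestinal keratin Krt20) and the distal block (Krt33a to Krt42, which holds the hair keratins Krt33a and Krt31 and the basal keratins Krt14 and Krt15) are separated by the Krtap block. A bin that blocks shared was given to neither, which left out the bin of Krt33a and Krtap17-1 and the bin of Krtap3-1, Krtap3-2 and Krtap3-3. Contacts between the keratin blocks were 3.03 times the expected value in WT (2.87 to 3.18, 1671 read pairs) and 4.41 times in the KO-labelled matrix (4.17 to 4.64, 1461 read pairs). At the same spacing elsewhere on the chromosome the median was 0.879 and 0.768, and 0.104% and 0.0345% of 2895 positions, the cluster's own included, were as high. The Krtap block between them contacted the proximal block at 1.70 (1.61 to 1.80) in WT and 1.32 (1.20 to 1.44) in the KO-labelled matrix, and the distal block at 1.31 (1.24 to 1.38) and 2.02 (1.90 to 2.14). Relative to the expected value at their distance, the 2 keratin blocks thus contacted each other more than either contacted the Krtap block between them, in both matrices. The keratin blocks are also the farthest apart. The ratio rose with distance on chromosome 15 too, which has no Krtap member, so the kind of block and the distance cannot be told apart here.

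Within itself, no block reached the ratio of observed to expected contacts found between the keratin blocks. The proximal keratin block gave 0.899 (0.853 to 0.944) in WT and 0.758 (0.699 to 0.816) in the KO-labelled matrix, below the chromosome's mean at those distances. The Krtap block gave 1.12 (1.05 to 1.19) and 1.29 (1.18 to 1.40), and the distal keratin block 1.33 (1.29 to 1.38) and 1.06 (1.00 to 1.12). When genes were joined only within 100 kb, which splits the chromosome 11 cluster at its Krtap block and drops the contacts between the parts, the mean within the runs was 1.06 in WT and 1.10 in the KO-labelled matrix.

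The ends of the clusters were also compared, over the 3 bins around each edge. On chromosome 15 the end with Krt80 and the end with Krt8 and Krt18 contacted each other at 3.39 times the expected value in WT (3.07 to 3.71, 503 read pairs) and 4.97 times in the KO-labelled matrix (4.52 to 5.43, 517 read pairs). Of 2494 pairs of places at this spacing on the chromosome, 0.2% and 0.0401% were as high. The ends of the chromosome 11 cluster gave 2.32 (1.95 to 2.698) and 3.40 (2.82 to 3.97), with 4.69% and 3.33% of places as high, and the ends of the chromosome 16 cluster gave 1.55 (1.20 to 1.90) and 1.57 (1.11 to 2.02), with 13.2% and 20.3% as high.

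Between the matrices, the log2 ratio of the within-cluster mean, Firre KO over WT, was 0.22 on chromosome 11 (0.17 to 0.28), 0.032 on chromosome 15 (-0.024 to 0.087) and 0.15 on chromosome 16 (0.056 to 0.24). A ratio as high as that of the chromosome 11 cluster was found in 13.4% of windows of its length on that chromosome, and 43.6% and 20.3% were as high as those of the chromosome 15 and 16 clusters. None of the 3 clusters passed a 1.5-fold difference, which 1.08%, 0.92% and 0.254% of windows passed in either direction. The difference in the chromosome 11 cluster was thus within the range of its chromosome, and its size depended on the setting, at 0.096 as a ratio of sums, 0.063 with genes joined within 100 kb, 0.15 with the expected value of all autosomes and 0.38 with uncorrected read pairs. That of the chromosome 15 cluster was 0.10 with uncorrected read pairs. That of the chromosome 16 cluster was 0.067 with only the bins that overlap a member, 0.059 with uncorrected read pairs and 0.040 with genes joined within 100 kb.

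The borders of the clusters were first read from the contacts that cross them. Contacts between the chromosome 11 cluster and the flank of equal length were 0.667 times the expected value on the proximal side (0.635 to 0.700) and 0.532 on the distal side (0.498 to 0.565) in WT. In the KO-labelled matrix they were 0.335 (0.31 to 0.361) and 0.303 (0.277 to 0.329). The chromosome 15 cluster gave 0.728 (0.694 to 0.762) and 0.542 (0.512 to 0.571) in WT, and 0.784 (0.736 to 0.832) and 0.317 (0.292 to 0.341) in the KO-labelled matrix. All 4 borders of the keratin clusters were thus crossed less often than expected in both matrices. The distal border was crossed less than the proximal border of the same cluster, beyond counting error except on chromosome 11 in the KO-labelled matrix, where the intervals overlapped. Of all pairs of adjacent windows on the chromosome, 6.29% in WT and 6.12% in the KO-labelled matrix were crossed as little as the distal border on chromosome 11, and 3.14% and 3.26% as little as that on chromosome 15. The proximal borders were closer to the rest of their chromosomes, with 20.7% and 8.21% of pairs crossed as little on chromosome 11 and 17.7% and 35.7% on chromosome 15.

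The borders of the chromosome 16 cluster were crossed more nearly at the expected rate. Contacts with its flanks were 0.964 (0.916 to 1.01) on the proximal and 0.894 (0.854 to 0.934) on the distal side in WT and 1.22 (1.16 to 1.29) and 0.952 (0.901 to 1.00) in the KO-labelled matrix. The log2 ratio of contacts within the cluster to those within its flanks was 0.32 (0.26 to 0.38) and 0.39 (0.31 to 0.48), but with uncorrected read pairs it turned to -0.51 and -0.43. The same ratio was 0.76 (0.72 to 0.80) and 1.16 (1.11 to 1.22) on chromosome 11 and 0.66 (0.61 to 0.70) and 0.91 (0.85 to 0.97) on chromosome 15, and it kept its sign without the correction.

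Of the 6 borders, 3 were crossed over 1.5-fold less in the KO-labelled matrix than in WT, where 18.4% of adjacent windows on chromosome 11, 13.3% on chromosome 15 and 14% on chromosome 16 passed the same mark. These were both borders on chromosome 11, with log2 ratios of -0.99 (-1.12 to -0.86) and -0.81 (-0.96 to -0.66), and the distal border on chromosome 15, with -0.77 (-0.91 to -0.64). Ratios as low were found in 6.09%, 10.5% and 6.81% of adjacent windows on their chromosomes. The proximal border on chromosome 15 gave 0.11 (-0.0040 to 0.22), and those on chromosome 16 gave 0.34 (0.24 to 0.45) and 0.091 (-0.010 to 0.19). The share of read pairs between chromosomes, given above, also differed between the matrices, and its part in these ratios was not tested.

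Borders were then read from the insulation score, the log2 of the contacts across a bin in a square of 480 kb over the mean of the chromosome, which is low where few contacts pass over. At the distance of at most 2 bins set for a border, 1 of the 6 edges had a boundary in WT and 2 in the KO-labelled matrix. Over the 3 chromosomes, 18.7%, 19.5% and 18.4% of bins in WT and 17.2%, 17.6% and 16.6% in the KO-labelled matrix lay that close to a boundary, and at this setting the counts were near that background. They moved with the settings. With a square of 240 kb they were 4 in WT and 3 in the KO-labelled matrix, and with a square of 960 kb they were 0 in both. The share of bins that close to a boundary was not measured with these squares. Within 4 bins, a distance chosen after the data were seen, the 4 edges of the keratin clusters had a boundary in each matrix. That close to a boundary lay 33.6%, 35.1% and 33.1% of the bins of chromosomes 11, 15 and 16 in WT, and 30.8%, 31.6% and 30% in the KO-labelled matrix.

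Neither keratin cluster had a boundary inside, but the share of windows of their lengths without one was not measured. On chromosome 11, 111 boundaries were called over 2948 scored bins in WT and 102 over 2949 in the KO-labelled matrix. Chromosome 15 had 98 over 2493 and 88 over 2490. The boundaries nearest to the edges of the keratin clusters lay 80 to 160 kb outside, and 160 to 800 kb away with a square of 960 kb. On chromosome 11 the distal boundary lay at chr11:100200001-100240000 in both matrices, 80 kb from the bin of Krt42. Its score was -1.36 in WT and -3.15 in the KO-labelled matrix, or -1.04 and -2.20 with a plain mean of the square. Its strength of 2.83 ranked 3 of 111 boundaries in WT, and its strength of 6.02 ranked 1 of 102 in the KO-labelled matrix. The distal boundary of the chromosome 15 cluster lay at chr15:102000001-102040000 in both matrices, 160 kb from the bin of Krt18, with a score of -1.22 in WT and -2.73 in the KO-labelled matrix, or -0.68 and -1.55 with a plain mean. It ranked 8 of 98 and 2 of 88 by strength. With a square of 240 kb the distance was 80 kb in WT and 120 kb in the KO-labelled matrix. The lowest score within 5 bins of this edge lay closer to it, at chr15:101880001-101920000 in WT (-1.39) and chr15:101920001-101960000 in the KO-labelled matrix (-3.06).

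The proximal boundary of each keratin cluster was weaker than its distal one. On chromosome 11 the nearest was called 160 kb from the bin of Krt222 in WT, with a strength of 2.30 that ranked 7 of 111, and 80 kb from it in the KO-labelled matrix, with a strength of 2.56 that ranked 27 of 102. These distances were 40 kb and 80 kb with a square of 240 kb, and 80 kb and 0 kb with a plain mean or with uncorrected read pairs, so their order depended on the setting. On chromosome 15 it lay 120 kb from the bin of Krt80 in both matrices, with strengths of 1.63 and 1.81. The median strengths of the boundaries of these chromosomes were 1.11 and 1.82 for chromosome 11 and 1.17 and 1.64 for chromosome 15, in WT and the KO-labelled matrix. On chromosome 16 the nearest boundaries lay 280 kb and 680 kb outside the edges in WT and 320 kb and 600 kb outside in the KO-labelled matrix. The distal distance was shorter under some other settings, at 160 kb in WT and 200 kb in the KO-labelled matrix with a square of 240 kb, 200 kb in both with a plain mean, and 120 kb in the KO-labelled matrix with uncorrected read pairs. The KO-labelled matrix also had a boundary inside the cluster, at chr16:88920001-88960000, with a strength of 0.26 and no member in its bin. This inside boundary was as near to the proximal edge as the outside one, at 320 kb.

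Among the WT boundaries of its chromosome, the score of the distal boundary on chromosome 11 differed by -1.79 between the matrices (Firre KO minus WT), and 5 of 111 boundaries, itself included, differed by as much downward. On chromosome 15 the difference at the distal boundary was -1.52, with 5 of 98 as low. With a plain mean of the square these differences were smaller, at -1.16 and -0.87. The proximal boundaries differed by -0.16 and -0.24, near the chromosome medians of -0.21 and -0.087.

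**Figure D3:**
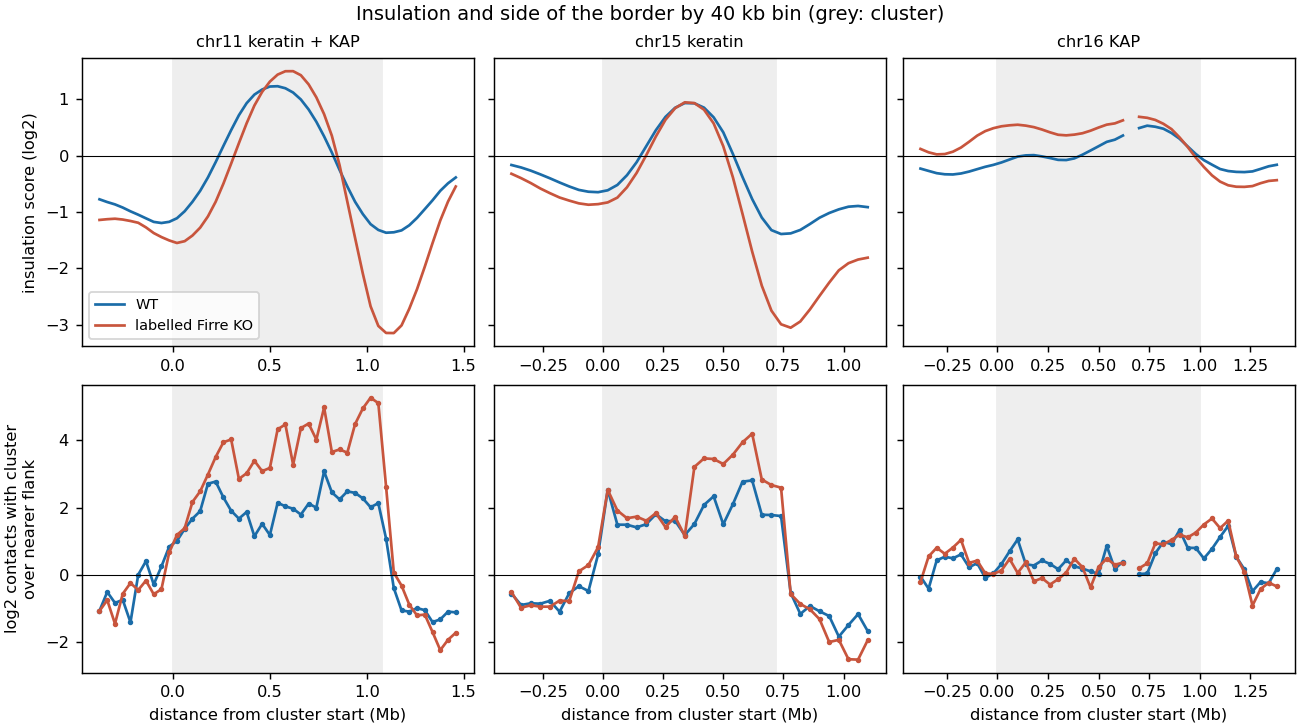
Insulation score (top) and log2 ratio of a bin's contacts with the cluster to its contacts with the nearer flank (bottom) by 40 kb bin, against distance in Mb from the start of the cluster (grey). On chromosomes 11 and 15 the score rises to a peak inside the cluster and dips at its edges, deepest at the distal edge in the KO-labelled matrix, and the ratio in the lower panels falls through 0 at or just beyond the edges.

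Single bins were assigned to the cluster or to the nearer flank by the log2 ratio of their mean observed over expected contacts with each. All 27 bins of the chromosome 11 cluster and all 18 bins of the chromosome 15 cluster leaned to the cluster in both matrices, so all 49 and all 24 members did. Among windows of the same length, every bin leaned to its window in 2.84% on chromosome 11 and 3.87% on chromosome 15 in WT, and in 6.19% and 6.41% in the KO-labelled matrix. The ratios ran from 1.01 to 3.08 in WT and from 1.19 to 5.27 in the KO-labelled matrix on chromosome 11, and from 1.19 to 2.81 and 1.16 to 4.20 on chromosome 15. The lean ran past the members at each end. On the proximal side it reached 80 kb beyond the cluster's bins on chromosome 11 in WT and 40 kb in the KO-labelled matrix, if bins are followed until the first that leaned to the flank, and 40 kb and 120 kb on chromosome 15. On the distal side it reached 40 kb and 80 kb on chromosome 11 and 40 kb in both matrices on chromosome 15. The bin of Eif1, a translation initiation factor gene beyond Krt42, leaned to the cluster at 1.08 in WT and 2.63 in the KO-labelled matrix. The bin with the start of Eif4b, another translation initiation factor gene beyond Krt18, leaned to it at 1.75 and 2.59. The next bin, with the end of Eif4b, leaned to the flank at -0.53 and -0.57. On chromosome 16, 24 of 24 bins leaned to the cluster in WT, by 0.026 to 1.34, and 19 of 24 in the KO-labelled matrix. By member, 19 of 19 and 12 of 19 did. The lean there ran 40 kb past the proximal edge in WT and 360 kb in the KO-labelled matrix, and 240 kb past the distal edge in both. All bins leaned to their window in 3.51% of windows of that length on chromosome 16 in WT and 5.18% in the KO-labelled matrix.

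The lean varied along the clusters. Krt222, at the proximal end of the chromosome 11 cluster and in the same bin as the chromatin remodelling gene Smarce1, had the lowest ratio of its cluster, 1.01 in WT and 1.19 in the KO-labelled matrix. Krt10, the type I keratin of the upper epidermis, had 2.71 and 2.98, and Krt14, the type I keratin of its basal layer, had 2.28 and 4.95. Krtap17-1 and Krt33a, at the change from Krtap to keratin genes, share a bin with 3.08 and 4.98. On chromosome 15, Krt5, the basal partner of Krt14, had 1.51 and 3.21, and Krt1, the partner of Krt10, had 1.51 and 3.30. Krt8 had 1.79 and 2.84 and Krt18 had 1.78 and 2.67. The flank that is nearer changes at the middle of a cluster, so ratios of genes on different sides of the middle rest on different flanks.

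The compartment of the clusters was taken from the first eigenvector of the contact map in windows of 200 kb, scaled to an SD of 1 over the chromosome. Its sign was set so that it correlates above 0 with the count of protein-coding genes. That correlation was 0.551, 0.639 and 0.495 on chromosomes 11, 15 and 16 in WT. It was weaker in the KO-labelled matrix, at 0.448, 0.426 and 0.277, which limits what the sign means there. Compartment A, above 0, is generally the active and open part of the genome, and compartment B, below 0, the inactive and compact part. Over all autosomes, 43.2% of windows were above 0 in WT and 42.3% in the KO-labelled matrix. The chromosome 11 cluster had a mean of 0.30 in WT (SD over windows 0.42, 6 windows) and -0.39 in the KO-labelled matrix (SD 0.29). With uncorrected read pairs these were 1.64 and -0.11, and with windows of 400 kb they were 0.61 and -0.082. The 10 windows around it, 5 on each side, were all above 0 in both matrices, with means of 1.29 and 1.25. On the corrected values the cluster was thus a dip within a stretch of A, and the flanks were not measured without the correction.

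The chromosome 15 cluster was low in its middle and higher at its ends. Its 5 windows had values of 1.40, 0.42, 0.036, 0.099 and 1.34 from proximal to distal in WT and 0.88, -0.26, -0.79, -0.91 and 0.72 in the KO-labelled matrix. The first window holds Krt80, and the last holds Krt8, Krt18 and Eif4b, and these end windows were above 0 in both matrices. The mean was 0.66 in WT (SD 0.67) and -0.071 in the KO-labelled matrix (SD 0.84), and with uncorrected read pairs it was 3.26 and 1.20, so the sign in the KO-labelled matrix turned. With windows of 120 kb it was 0.28 and -0.49. The 3 windows between, which hold the genes from Krt7, a keratin of ductal and other simple epithelia, to Krt78, were the lowest of the cluster in both. The 10 windows around the cluster had means of 1.44 and 0.92, with 10 above 0 in WT and 9 in the KO-labelled matrix, where the lowest was at -0.057.

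The chromosome 16 cluster lay in compartment B. Its mean was -1.25 in WT (SD 0.15, 5 windows) and -1.24 in the KO-labelled matrix (SD 0.16), and 3.58% and 11.2% of the windows of the chromosome were as low. All 5 windows were below 0 in both matrices. The 5 windows on its proximal side were B as well except the farthest, while those on its distal side rose to 1.62 in WT. In the KO-labelled matrix 4 of the 5 distal windows were below 0, and the nearest, at -1.70, was lower than the cluster. With uncorrected read pairs the WT value was 0.15, where the bins of the cluster also had fewer read pairs than their chromosome.

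Counted by gene, 30 of 49 members on chromosome 11 and 24 of 24 on chromosome 15 lay in windows above 0 in WT, against 4 and 3 in the KO-labelled matrix. The 4 were Krt222, Krt24, Krt25 and Krt26, and the 3 were Krt80, Krt8 and Krt18. All 19 members on chromosome 16 lay below 0 in both. Of all autosomal protein-coding genes, 71.1% lay in windows above 0 in WT and 61.5% in the KO-labelled matrix. Genes of a window share its value, and most of these members lay in WT windows close to 0, at 0.17, 0.14 and -0.0029 on chromosome 11 and at 0.036 and 0.099 on chromosome 15, so the counts turn on small values. The sign differed between the matrices in 6 of the 16 windows of the clusters, 3 on chromosome 11, 3 on chromosome 15 and 0 on chromosome 16, where 23.6% of all autosomal windows differed in sign. All 11 windows of the keratin clusters were lower in the KO-labelled matrix. Most of the other gene clusters described below also had a lower compartment mean there. The share of all windows that were lower was not measured, and neighbouring windows are not separate observations. The mean difference was -0.69 on chromosome 11 and -0.73 on chromosome 15, as low as in 9.64% and 12.6% of stretches of the same length on their chromosomes, whose medians were 0.055 and -0.10. Without the correction the cluster means lay further apart. They were 1.64 in WT and -0.11 in the KO-labelled matrix on chromosome 11, 3.26 and 1.20 on chromosome 15, and 0.15 and -0.46 on chromosome 16.

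**Figure D4:**
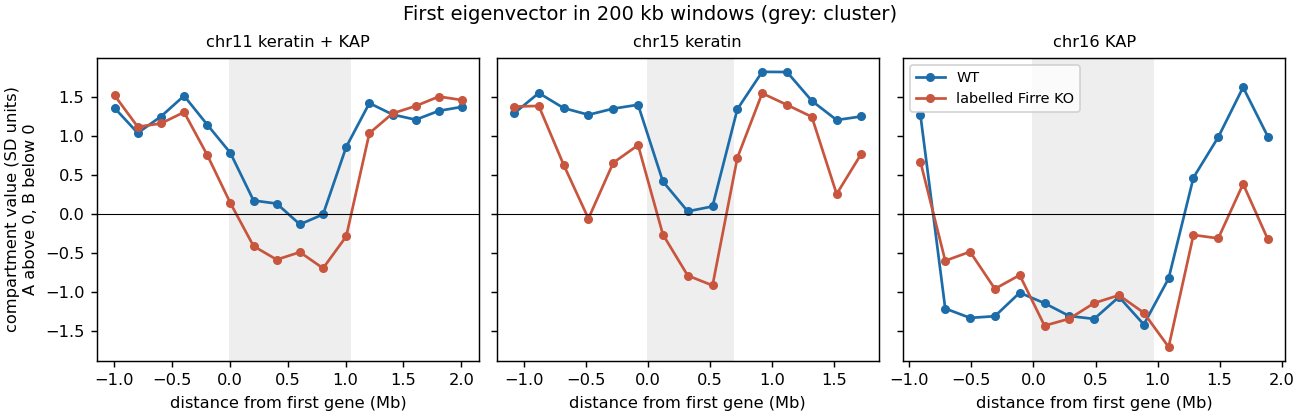
Compartment value (first eigenvector, SD units, A above 0 and B below 0) of 200 kb windows against distance in Mb from the first gene of each cluster (grey), in WT and the KO-labelled matrix. The chromosome 11 and 15 clusters appear as dips between flanks whose means lie from 0.92 to 1.44, and the chromosome 16 cluster stays near -1.2 in both matrices.

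The eigenvector of the matrices differed over whole chromosomes, with a correlation between them over windows of 0.843 on chromosome 11, 0.621 on chromosome 15 and 0.638 on chromosome 16. A measure that does not use contacts within the chromosome was therefore added, the log2 ratio of a cluster's mean contact with A windows to that with B windows on the other autosomes. In WT it was 1.11 (1.05 to 1.18) for the chromosome 11 cluster, below its flanks at 1.70 and 1.73, and 0.92 (0.85 to 0.98) for the chromosome 15 cluster, below its flanks at 1.49 and 1.68. In the KO-labelled matrix it was 0.10 (0.055 to 0.15) and 0.056 (0.0025 to 0.11), while the flanks were at 1.61 and 1.85 and at 0.85 and 1.53. The chromosome 16 cluster preferred B windows in both, at -0.51 (-0.59 to -0.43) and -1.15 (-1.23 to -1.08). By this measure, too, the keratin clusters lay between their flanks and the Krtap cluster. In the KO-labelled matrix both keratin clusters were slightly on the A side here and on the B side by the mean of their eigenvector.

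Contacts between the clusters on different chromosomes were few. The chromosome 11 and 15 clusters, which hold the type I and type II partners, shared 15 read pairs in WT (95% Poisson interval 8.40 to 24.7) and 17 in the KO-labelled matrix (9.90 to 27.2). No bin pair held more than 1 of them. Relative to the mean of all bin pairs between these chromosomes they were 2.65 times as frequent in WT (1.49 to 4.38) and 2.26 times in the KO-labelled matrix (1.31 to 3.61). Of all pairs of windows of these lengths on the chromosomes, 4.09% and 5.32% were as high. Against bin pairs of the same compartments the values were 1.77 (0.993 to 2.93) and 2.41 (1.40 to 3.85), and against bin pairs in the same relative part of both chromosomes they were 1.57 (0.881 to 2.60) and 1.53 (0.891 to 2.45), where the intervals include 1.

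The Krtap genes of chromosome 16 shared 8 read pairs with the chromosome 11 cluster in WT and 7 in the KO-labelled matrix, at 1.66 (0.719 to 3.28) and 1.49 (0.601 to 3.08) times the mean. The WT value was 2.77 (1.02 to 6.03) with only the bins that overlap a member and 2.697 (1.16 to 5.31) with genes joined within 100 kb, and the other value was 0.898 (0.361 to 1.85) with uncorrected read pairs. With the chromosome 15 cluster they shared 2 and 5, at 0.372 (0.045 to 1.34) and 1.03 (0.335 to 2.41). The KO-labelled value of this pair was 0.193 (0.0049 to 1.07) with genes joined within 100 kb. Over the 3 pairs of clusters, 25 and 29 read pairs gave 1.61 (1.05 to 2.38) and 1.60 (1.07 to 2.30), and 1.15 (0.745 to 1.70) and 1.29 (0.863 to 1.85) against the same relative part of the chromosomes. At this depth none of these 3 pairs of keratin and Krtap clusters was separated from its surroundings beyond counting error under all the expected values tried. The 3 pairs with the EDC, the epidermal differentiation complex of chromosome 3 described below, served as a comparison and were spread on both sides of the mean. No other expected value was tried for them. The EDC and the chromosome 11 cluster shared 2 read pairs in WT, at 0.205 times the mean (0.025 to 0.740), and 7 in the KO-labelled matrix, at 0.856 (0.344 to 1.76). With the chromosome 15 cluster it shared 4 and 9, at 0.520 (0.142 to 1.33) and 1.31 (0.598 to 2.48). The EDC and the chromosome 16 cluster shared 6 read pairs in WT, at 2.92 times the mean (1.07 to 6.35), with 1.32% of window pairs as high, and 5 in the KO-labelled matrix, at 1.37 (0.444 to 3.19). The bins of the keratin clusters had a larger share of contacts with other chromosomes than the median bin of their chromosomes. The median share of a bin's contacts was 21.3% for the chromosome 11 cluster and 24.4% for the chromosome 15 cluster in WT, against chromosome medians of 18.8% and 17.6%, and 46.7% and 47.02% in the KO-labelled matrix, against 40.4% and 38.1%. Shares as low were found in 69.7% and 88.4% of the bins of these chromosomes in WT and in 86.3% and 87.3% in the KO-labelled matrix. The chromosome 16 cluster had 17.2% against 17.9% in WT and 37.2% against 37.1% in the KO-labelled matrix. The chromosome 15 cluster lies 1.63 Mb from the end of its chromosome, and the part of this position was not tested.

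**Figure D5:**
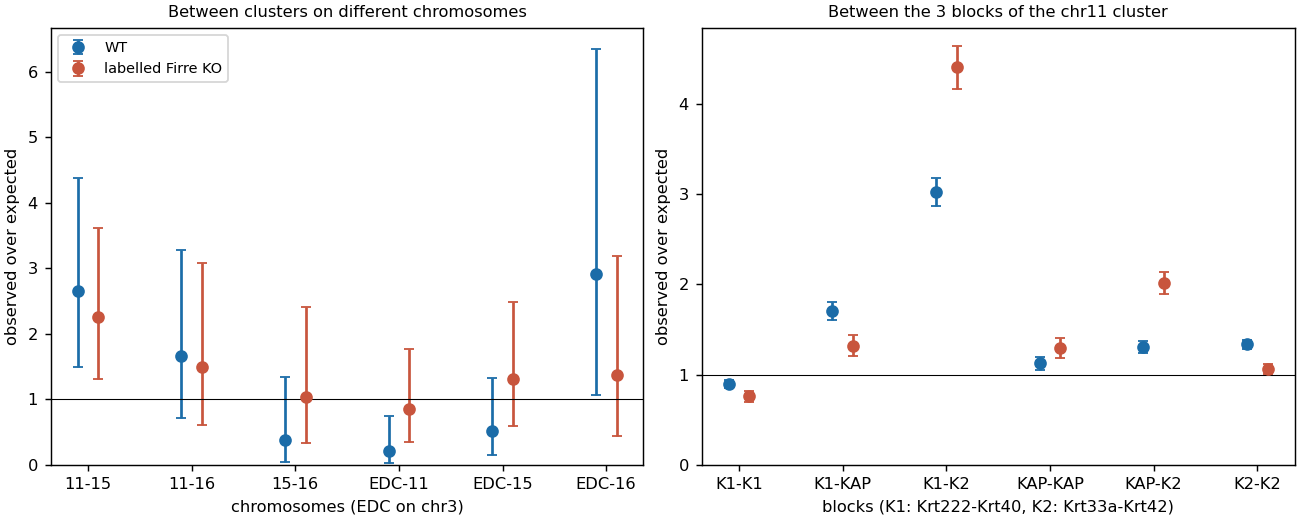
Left: observed over expected contacts between pairs of clusters on different chromosomes, with the epidermal differentiation complex (EDC) of chromosome 3 as a comparison. Right: contacts within and between the 3 blocks of the chromosome 11 cluster (K1 and K2, keratin blocks, and KAP, Krtap block). Bars are 95% counting intervals. The interval of the chromosome 11 and 15 pair lies above 1 in both matrices on this scale, as does that of the EDC with chromosome 16 in WT. The observed over expected value of K1 with K2 stands above all other block pairs.

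Clusters of other genes were measured in the same way. The EDC, which holds 46 named genes for the cornified envelope of skin on chromosome 3, had a within-cluster mean of 0.899 (0.865 to 0.932) in WT and 1.00 (0.957 to 1.05) in the KO-labelled matrix. The log2 ratio of the chromosome 11 keratin cluster to it was 0.91 (0.85 to 0.97) and 0.97 (0.90 to 1.05), and that of the chromosome 15 cluster 0.90 (0.84 to 0.97) and 0.77 (0.69 to 0.85). Of 10 clusters of olfactory receptor genes on the same 3 chromosomes, 6 spanned at least 5 bins, with means from 1.03 to 1.61 in WT and from 0.997 to 1.54 in the KO-labelled matrix. The densest, 29 genes on chromosome 11 (chr11:73164341-74179111), came close to the chromosome 11 keratin cluster in WT, where the log2 ratio of the keratin cluster to it was 0.064 (0.0036 to 0.12), and lay further below it in the KO-labelled matrix, at 0.36 (0.27 to 0.44). The chromosome 15 keratin cluster was not separated from it in WT, at 0.056 (-0.0056 to 0.12), and was above it in the KO-labelled matrix, at 0.16 (0.072 to 0.24). That receptor cluster lay in compartment B, with means of -1.05 and -1.25, unlike the keratin cluster in WT. Compartment means were lower in the KO-labelled matrix than in WT in the EDC as well, at -1.13 against -0.30. They were also lower in the receptor clusters that start at chr15:98016444 (-0.75 against 0.86) and chr11:58268417 (-1.29 against -0.43). On chromosome 16 the receptor clusters gave -1.36 against -0.91 and -1.23 against -0.96. The receptor cluster that starts at chr11:48792391 was higher, at -0.86 against -1.04. The clusters differ in length, and longer ones hold more distant bin pairs.

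Genes of the same protein family outside the clusters were counted in the same way. Of 16 other intermediate filament genes, such as the desmin gene Des, the lamin gene Lmna and the neural gene Nes, 15 lay in windows above 0 in WT and 13 in the KO-labelled matrix, with median values of 1.37 and 1.39. Of all autosomal protein-coding genes, 71.1% and 61.5% did. The neurofilament genes Nefl and Nefm share a window and so count as 1 place. The median over members was 0.14 and -0.58 on chromosome 11 and 0.099 and -0.79 on chromosome 15, although all 24 members on chromosome 15 were also above 0 in WT. The exception in WT was Vim, the vimentin gene, at -0.20, which was at 0.51 in the KO-labelled matrix.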

How the data were processed

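Hi-C libraries of WT and Firre KO male mESCs, cut with HindIII, were mapped to mm9 by the authors, and their read pairs were filtered, pooled by group, binned at 40 kb and iteratively corrected with HiC-Pro 2.7.8, per the labels and the methods. The deposited value is a contact signal per bin pair in which each kept bin of a matrix has the same total. Whole read pairs and bin weights were recovered from it (100% of entries within 0.05 of a whole number). All 22 chromosome lengths of the bin tables matched the mm9 sequence, and genes came from GENCODE vM1.

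Insulation used the study's settings (480 kb square, 320 kb delta span, 160 kb smoothing, interquartile mean, strength above 0) in an own implementation with Python 3.11.15 and numpy 2.4.6. Windows with at least 80% of bins kept served as background, and such windows overlap each other and are not replicates. Intervals for means took the variance of each read pair count as Poisson and the bin weights as known, and those for read pairs were exact Poisson intervals. Read pairs carry no molecular identifiers, so intervals cover counting error only. The scripts were tested on simulated data. A flank had the length of its cluster. Named genes were the first and last member of each cluster, the nearest protein-coding gene on each side, members in a boundary bin, members at a change between keratin and Krtap genes, and 10 keratins listed by function. Alternatives changed the insulation square and its mean, the bin pairs and bins used, the expected value, the correction, the joining distance, the flank width, the compartment window and measure, and the border distance. The members and lists were chosen with earlier results of these data known.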

Additional observations from a re-analysis of the deposited data

How the results depend on the processing

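Of 239 values under alternative settings, 153 differed from the reported value by less than its counting interval (SD over windows for compartments, 1.5 times for counts), 82 by more, and 4 had an interval without 0 and changed sign. Among the others, 2 changed sign from a value whose interval included 0, both of the chromosome 15 compartment in the KO-labelled matrix. No paired analysis was possible because both libraries of a group are pooled in 1 matrix, and for the same reason no library could be left out. Means within clusters are given for WT and then the KO-labelled matrix. From 80 kb apart they were 1.75 and 2.05 on chromosome 11 and 1.76 and 1.79 on chromosome 15. With only the bins that overlap a member they were 1.76 and 2.05 on chromosome 11 and 1.21 in WT on chromosome 16. As a ratio of sums, which weights short distances, they were 1.24 and 1.32, 1.36 and 1.41, and 1.03 and 1.12 on chromosomes 11, 15 and 16, with a log2 ratio between the matrices of 0.096 on chromosome 11. With genes joined within 100 kb they were 1.06 and 1.10, 1.28 and 1.32, and 1.03 and 1.06, with log2 ratios of 0.063 on chromosome 11 and 0.040 on chromosome 16. At that setting, contacts between the chromosome 15 and 16 clusters were 0.193 times the mean of the chromosome pair in the KO-labelled matrix. The values that follow are again means within clusters. With uncorrected read pairs they were 1.86 and 2.42, 2.97 and 3.19, and 0.863 and 0.899, with log2 ratios of 0.38 on chromosome 11 and 0.10 on chromosome 15. With the expected value of all autosomes the chromosome 11 cluster gave 1.84 in the KO-labelled matrix, a log2 ratio between the matrices of 0.15, and log2 ratios to its flanks of 0.71 and 1.05. With narrower flanks (0.5 of the length) these were 0.60 and 0.88 on chromosome 11, 0.49 and 0.77 on chromosome 15, and 0.64 in the KO-labelled matrix on chromosome 16. With uncorrected read pairs they were 1.09 in the KO-labelled matrix on chromosome 11, 1.05 and 1.19 on chromosome 15, and -0.51 and -0.43 on chromosome 16, where the direction turned. The number of edges with a boundary was 4 in WT with a square of 240 kb, 0 in both matrices with 960 kb, 2 in WT with a plain mean or with uncorrected read pairs, 0 in both within 1 bin and 4 in both within 4 bins, a setting added after the data were seen. Of these settings, the share of all bins near a boundary was measured only within 4 bins. Compartment values with uncorrected read pairs were 1.64 in WT on chromosome 11, 3.26 and 1.20 on chromosome 15, and 0.15 and -0.46 on chromosome 16. The preference for A over B windows on other chromosomes was 1.11 and 0.10 on chromosome 11, 0.056 in the KO-labelled matrix on chromosome 15 and -0.51 in WT on chromosome 16, and windows of 400 kb gave -0.082 on chromosome 11 in the KO-labelled matrix. The causes were not tested. Contacts between chromosomes rest on 2 to 17 read pairs a pair of clusters, which limits them.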
